A study of Mus musculus with 6 samples.

Results

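The nuclear genes for the subunits of oxidative phosphorylation (OXPHOS) were examined for binding of TAF4b and for the histone mark H3K4me3 in mouse prospermatogonia, the germ cells of the testis before birth. Members were the nuclear protein-coding genes of GENCODE whose symbols follow the naming of the 5 respiratory complexes (Nduf a, b, c, s and v genes, Cox4 to Cox8, Uqcr, Sdh a to d, and Atp5). This gave 86 of 21534 nuclear protein-coding genes: 36 of complex I, 4 of complex II, 8 of complex III, 19 of complex IV, 18 of complex V and Cox5b-ps. Cox5b-ps is named as a pseudogene and typed as protein coding, and Ndufa4 was placed in complex IV. Of the complex IV genes, 7 encode isoforms known from particular tissues such as muscle, lung and testis (Cox4i2, Cox6a2, Cox6b2, Cox7a1, Cox7b2, Cox8b and Cox8c). The testis-linked gene Uqcrhl was not found in the annotation and is not used here.

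CUT&RUN, in which an antibody directs a nuclease that cuts out the DNA around an antigen, had been applied with antibodies to TAF4b and to H3K4me3 and with control IgG, 2 replicates of each and 6 libraries in all. All libraries were labelled as male, Taf4b-wildtype, C57BL/6 and E16.5 (days of embryonic development). The germ cells came from matings of mice homozygous for an Oct4-EGFP transgene (stock B6;129S4-Pou5f1tm2Jae/J) and had been sorted on their green fluorescence, so cells sharing that reporter are what the libraries stand for. The labels do not say whether the replicates were separate embryos, pools of embryos or portions of 1 sort, and IgG was not analysed here, which leaves the values without an antibody background beside them.

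OXPHOS couples the transfer of electrons along complexes I to IV of the inner mitochondrial membrane to the pumping of protons, and complex V, the ATP synthase, uses the proton gradient to make ATP. Most subunits are encoded in the nucleus and a minority in the mitochondrial genome, so the supply of subunits rests on many separate nuclear promoters. TAF4b is a paralog of TAF4 enriched in germ cells, and both belong to TFIID, the general factor that helps RNA polymerase II start at promoters, and H3K4me3 marks the nucleosomes around active start sites.

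The replicates of each antibody differed greatly in how much was called. The TAF4b lists held 7861 and 848 peaks and the H3K4me3 lists 64891 and 1730 regions in replicates 1 and 2. Read totals are not given, so the depth behind these lists is unknown, and the absence of an interval in a replicate 2 list is not evidence that a promoter was unbound. A score accompanies each interval; it is the authors' own value, its scaling is not given in the sources used here, and it was compared only within 1 list. Of 10 germ cell marker genes, 7 had a TAF4b replicate 1 promoter peak (Ddx4, Dazl, Dnd1, Mael, Piwil2, Tdrd9 and Sohlh2), against 0 of 7 Sertoli, 0 of 6 Leydig and 0 of 6 endothelial and blood cell markers and 22.9% of all coding genes. Within 1000 bp of a start site the counts were the same except for 1 Leydig marker, Nr5a1. For H3K4me3 replicate 1 the counts in the same order were 4, 5, 1 and 1 for promoter regions, against 44.3%, and 8, 6, 2 and 3 within 1000 bp, against 70.5%. Sertoli markers thus carried the mark by either count, and whether other cells contributed to the H3K4me3 regions at the OXPHOS genes was not tested.

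A gene was counted as having an interval when the deposited annotation placed the interval in the promoter class and named a transcript of that gene (the promoter rule), and separately when the centre of an interval lay within 1000 bp of any of its start sites (the distance rule). TAF4b replicate 1 peaks met the promoter rule at 39 of the 86 OXPHOS genes, or 45.3%, where the background over all nuclear coding genes was 22.9%. By the distance rule they were at 47, or 54.7%, against 28.9%. In TAF4b replicate 2 the promoter rule found 3 of 86, or 3.49%, close to the background of 3.15%, and the distance rule 4, or 4.65%, against 4.13%. The higher share was therefore seen in replicate 1 and not in the short replicate 2 list.

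Peaks recurred in both TAF4b lists at 3 members by the promoter rule, Atp5f1b, Atp5mc1 and Uqcrq, where 2.73% of all coding genes had a promoter peak in both. These 3 are 3.49% of the OXPHOS genes, near that background. They are 3 of the 3 members called in replicate 2 and 3 of the 39 called in replicate 1. The DNA under their replicate 1 peaks is shown because these members had a promoter peak in both lists. All coordinates are on GRCm39 and each sequence reads 5′ to 3′ on the strand of the gene. Capitals mark matches on either strand to the CCAAT box (CCAAT) or the GC box (GGGCGG), short elements found in many promoters. Atp5f1b lies on the plus strand (chr10:127918910-127919052) and Atp5mc1 (chr11:95966500-95966642) and Uqcrq (chr11:53321852-53321994) on the minus strand. All 3 stretches lie upstream of the canonical start site and contain no exon of a canonical coding transcript.
Atp5f1b: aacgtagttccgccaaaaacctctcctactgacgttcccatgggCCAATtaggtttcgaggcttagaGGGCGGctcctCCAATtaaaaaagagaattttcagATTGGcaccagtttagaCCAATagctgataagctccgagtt
Atp5mc1: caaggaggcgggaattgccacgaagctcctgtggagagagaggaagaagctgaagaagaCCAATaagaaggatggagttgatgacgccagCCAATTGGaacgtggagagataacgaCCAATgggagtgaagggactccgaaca
Uqcrq: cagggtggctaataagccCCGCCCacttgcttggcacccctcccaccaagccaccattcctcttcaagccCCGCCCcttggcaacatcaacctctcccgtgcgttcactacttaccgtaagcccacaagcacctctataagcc

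Uqcrq encodes a small subunit of complex III, and its peak had the highest TAF4b replicate 1 score of the OXPHOS genes. The score was 47.1, rank 57 of 7861 peaks, and in replicate 2 it was 101.2, rank 61 of 848. The centres of both peaks were 1 bp apart. The replicate 1 peak covered bases -324 to -182 from the canonical Uqcrq start site, and the nearest annotated transcript was one of Gdf9, a growth factor gene best known from the oocyte that lies head to head with Uqcrq. The peak sits between the canonical start sites of both genes, so it cannot be assigned to one of them. The sequence above holds 2 GC boxes and no CCAAT box.

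Atp5f1b encodes the catalytic beta subunit of the ATP synthase. Its peaks scored 40.2 (rank 179) in replicate 1 and 101.2 (rank 61) in replicate 2, with centres 107 bp apart and 58 bp shared. The replicate 1 peak covered bases -222 to -80 from the start site and holds 4 CCAAT matches and 1 GC box. Its nearest transcript in the deposited annotation belonged to the antisense long noncoding gene Gm47438, while the replicate 2 peak was nearest to Atp5f1b itself.

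Atp5mc1, one of 3 genes for the proton-carrying c subunit of the ATP synthase rotor, had scores of 40.7 (rank 167) and 56.7 (rank 456). These peaks lie in the same promoter and do not overlap. Their centres were 227 bp apart and they shared 0 bp, the replicate 2 peak being farther upstream. Atp5pd, which encodes subunit d of the peripheral stalk, was added by the distance rule. Its peaks scored 14.9 and 48.6, lay 16 bp apart at their centres and shared 142 bp. Their promoter class named Kctd2, whose start site lies 447 bp from that of Atp5pd on the opposite strand, while the nearest transcript was one of Atp5pd, at deposited distances of -15 and -31 bp. The replicate 1 centre lay 539 bp inside Atp5pd from its canonical start site.

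**Figure D1:**
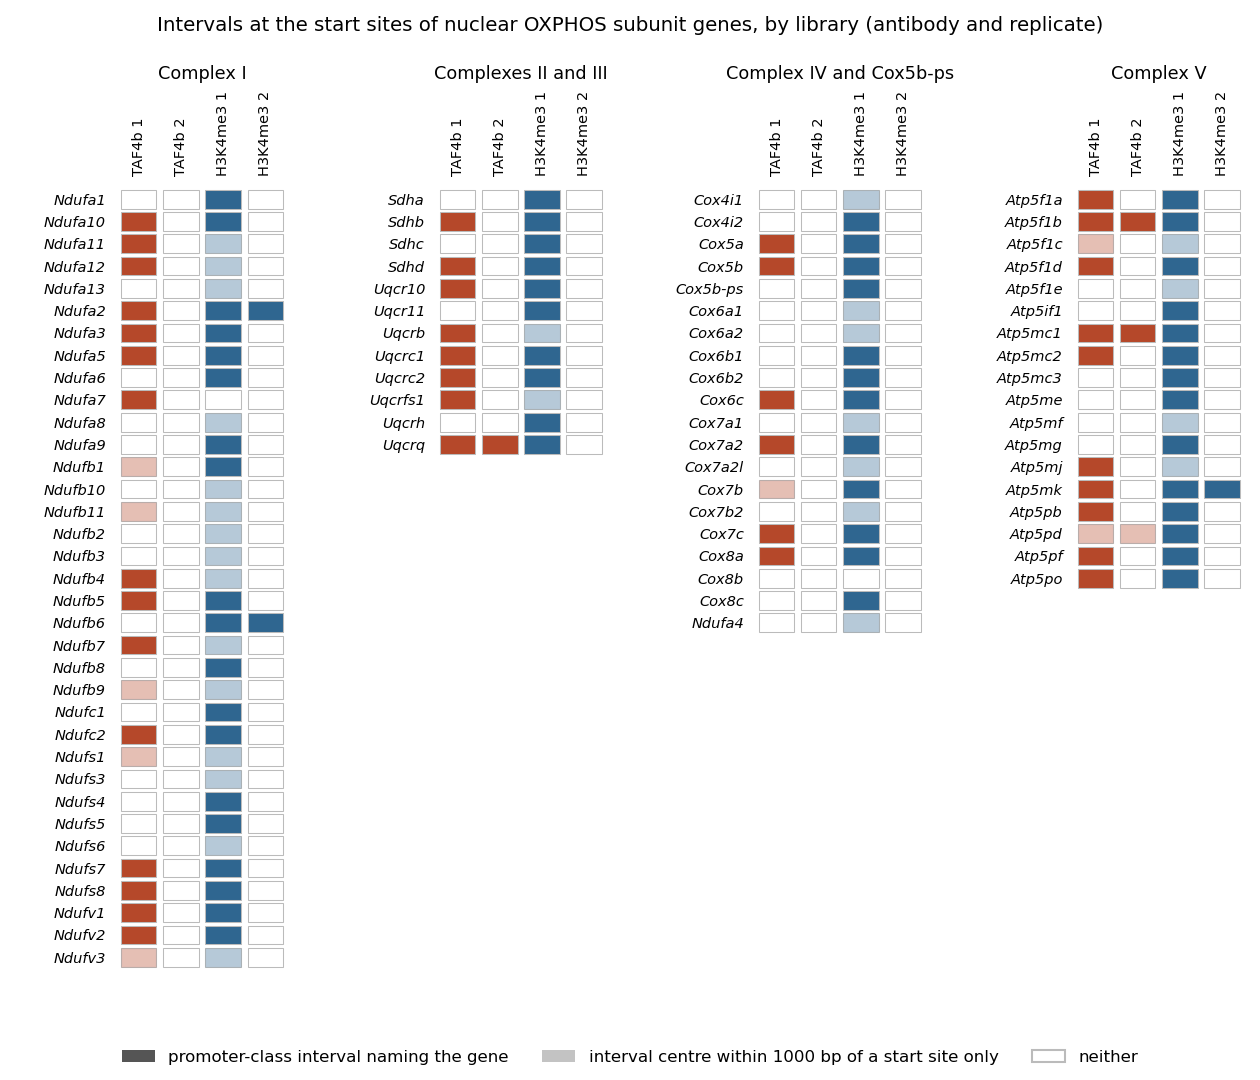
Each row is 1 OXPHOS subunit gene, with 1 member not shown, and each column 1 library; full colour marks a promoter-class interval naming the gene, pale colour an interval centre within 1000 bp of a start site without such a class, and white neither. TAF4b replicate 1 has full colour at 39 genes and TAF4b replicate 2 at 3, and nearly every gene is coloured for H3K4me3 replicate 1.

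H3K4me3 replicate 1 regions were at nearly every OXPHOS gene. The promoter rule found 56 of 86, or 65.1%, against 44.3% of all coding genes, and the distance rule 84, or 97.7%, against 70.5%. The deposited class follows the centre of an interval, so a broad region across a start site can be classed as exon or intron. The members without a region by the distance rule were Cox8b and Ndufa7. In H3K4me3 replicate 2 the count was 3 of 86 by either rule, 3.49%, against backgrounds of 4.16% by the promoter rule and 7.17% by the distance rule. The 3 genes were Ndufb6, Ndufa2 and Atp5mk.

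Because TAF4b peaks lie mostly at marked promoters, the OXPHOS genes were also compared with marked genes alone. Of the 56 members with an H3K4me3 replicate 1 promoter region, 31 (55.4%) had a TAF4b replicate 1 promoter peak, where the background among all such genes was 38.0%. By the distance rule it was 46 of 84 (54.8%), against 39.9%. For TAF4b replicate 2 the corresponding backgrounds were 5.51% and 5.74%. The members with a peak were the 3 and 4 genes named above, all of which carried an H3K4me3 replicate 1 region. These are 3 of 56 and 4 of 84, no higher than those backgrounds. The share of marked OXPHOS genes with TAF4b in replicate 1 thus stood above that of marked genes in general by either rule. The short replicate 2 list did not show this difference. There is 1 TAF4b list of the length of replicate 1, so the difference has no replicate check at that length.

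The H3K4me3 regions of OXPHOS genes with and without TAF4b overlapped widely in score and width. The 31 members with both had a median H3K4me3 replicate 1 score of 92.4 and a median region width of 1454 bp, and the 25 members with the mark and no TAF4b promoter peak had 89.4 and 1351 bp. The scores ranged from 35.8 to 265 and from 29.8 to 173, and the difference was not tested. Over all coding genes the same medians were 93.9 and 83.5 for the score and 1450 and 1254 bp for the width. Of the 39 TAF4b replicate 1 promoter peaks at members, 36 overlapped an H3K4me3 replicate 1 region by at least 1 bp, 92.3% (exact 95% binomial interval 79.1 to 98.4, counting error only), against 86.5% of such peaks over all coding genes. The 3 without overlap were at Ndufa11, Ndufa7 and Cox6c. With the shorter H3K4me3 replicate 2 list, 2 of the 39 peaks overlapped, 5.13%, against 8.23% of all. The 3 replicate 2 TAF4b peaks all overlapped H3K4me3 replicate 1 regions, against 92.4% of such peaks over all coding genes. With H3K4me3 replicate 2 it was 0 of 3, against 12.3%.

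**Figure D2:**
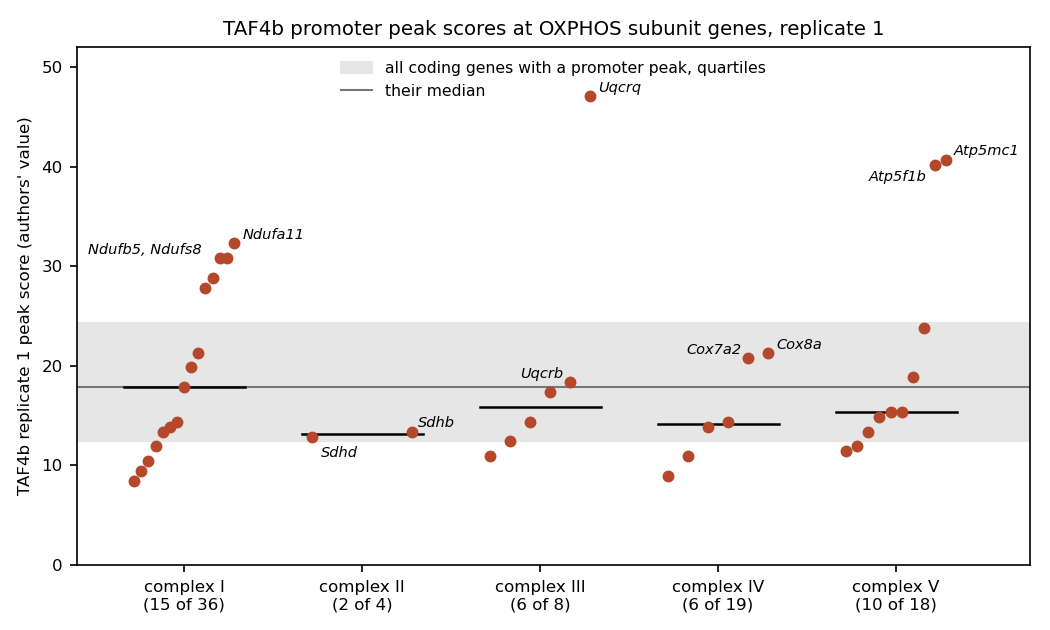
TAF4b replicate 1 peak scores (authors' value, linear axis) for the OXPHOS genes with a promoter peak, 1 point per gene, sorted within each complex, with the median of the complex as a black bar. The grey band and line are the quartiles and median of all coding genes with a promoter peak, 12.4, 17.9 and 24.3, and the points above 40 are Uqcrq, Atp5mc1 and Atp5f1b.

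TAF4b peaks at OXPHOS genes were numerous in replicate 1. Their median score was 14.9, with a range of 8.44 to 47.1, and that of all coding genes with a promoter peak was 17.9, a ratio of 0.832. Of the 39, 15 lay above the median of all. Against all peaks of the list the ratio was 1.00, and for the 3 promoter peaks in replicate 2 the ratio to those of all coding genes was 1.67. When TAF4b replicate 1 was reduced to its 848 highest-scoring peaks, the size of the replicate 2 list, 6 members (6.98%) had a promoter peak, against 3.39% of coding genes. These were Uqcrq, Atp5mc1, Atp5f1b, Ndufa11, Ndufb5 and Ndufs8. All 3 members called in replicate 2 were among these 6. With the higher-scoring 50% of the replicate 1 list, 20 members (23.3%) had a promoter peak, against 14.7%.

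Complex I, the entry point for electrons from NADH, had TAF4b replicate 1 promoter peaks at 15 of 36 genes (41.7%) and peaks within 1000 bp at 20 (55.6%), against 22.9% and 28.9% of all coding genes. Its nuclear core subunits hold the flavin and the iron-sulfur clusters, and among these Ndufs7, Ndufs8, Ndufv1 and Ndufv2 had promoter peaks and Ndufs1 had a peak by distance. Not every core subunit had one, and Ndufs3 had no TAF4b peak by either rule. The highest scores in complex I were those of Ndufa11, an accessory subunit of the membrane arm, at 32.3, and of Ndufb5, another membrane arm subunit, and Ndufs8, a core iron-sulfur subunit, both at 30.8. In TAF4b replicate 2 no complex I gene had a peak by either rule, 0 of 36, where the promoter and distance backgrounds were 3.15% and 4.13%.

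Several complex I peaks lie where a second gene starts. The start sites of Ndufa11 and of Vmac on the opposite strand are 345 bp apart, the Ndufa11 peak was nearest to Vmac, and it ended just upstream of the H3K4me3 region. Ndufb5 starts 157 bp from Mrpl47, a mitochondrial ribosomal protein gene, and Ndufa7 starts 1 bp from Rps28, a cytosolic ribosomal protein gene. Ndufa7 was the single member with a TAF4b peak (score 10.4, centre 2 bp from the canonical start site) and no H3K4me3 region within 1000 bp. The closest H3K4me3 replicate 1 region to it was centred 6358 bp upstream.

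Complex II, succinate dehydrogenase, had promoter peaks at 2 of 4 genes, where 22.9% of coding genes had one. They were Sdhb, the iron-sulfur subunit, at 13.4 and Sdhd, a membrane anchor, at 12.9. Sdha, the flavoprotein, and Sdhc, the other anchor, had none, and all 4 genes carried H3K4me3 replicate 1 promoter regions (44.3% of coding genes) with scores of 50.7 to 111.8. Sdhd starts 69 bp from Timm8b, a gene for a mitochondrial import chaperone, and its peak was nearest to Timm8b. Complex III had a peak at 6 of 8 genes by either rule, against 22.9% and 28.9% of coding genes. By the nearest transcript it was 4 of 8 (50%), where complex V had 10 of 18 (55.6%) and all coding genes 26.5%. Both large core proteins (Uqcrc1 at 12.4 and Uqcrc2 at 14.4) and the Rieske iron-sulfur protein Uqcrfs1 (10.9) were among these, along with the small subunits Uqcrq, Uqcrb (18.4) and Uqcr10 (17.4). Uqcrh, the hinge protein, had no TAF4b peak and the highest H3K4me3 replicate 1 score of the complex, 172.9.

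Complex V had promoter peaks at 10 of 18 genes and peaks within 1000 bp at 12, against 22.9% and 28.9% of coding genes. In the catalytic head and central stalk, 3 of 5 genes met the promoter rule (Atp5f1a, Atp5f1b and Atp5f1d) and Atp5f1c met the distance rule, with its peak annotated to Kin. All 4 peripheral stalk genes had a TAF4b peak by distance and 3 by the promoter rule. Coding genes on the opposite strand start 641 bp from Atp5pb, 447 bp from Atp5pd and 980 bp from Atp5pf. The Atp5pb peak was nearest to its neighbour Wdr77. Among all coding genes with such a neighbour, 65.2% had a TAF4b replicate 1 peak by distance. For the c ring the peaks were at Atp5mc1 and Atp5mc2, whose scores of 40.7 and 13.4 ran opposite to their H3K4me3 replicate 1 scores of 70.1 and 265.3, and Atp5mc3 had none. Atp5if1, the inhibitor of the ATP synthase, had no TAF4b peak and an H3K4me3 score of 110.3.

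Complex IV, cytochrome c oxidase, had peaks at 6 of 19 genes (31.6%) by the promoter rule (Cox8a, Cox7a2, Cox7c, Cox5b, Cox5a and Cox6c) and at 7 with Cox7b by distance, against 22.9% and 28.9%. Its 19 genes include the 7 tissue-specific isoforms, and without them the promoter rule found 6 of 12. The highest scores were those of Cox8a, 21.3, and Cox7a2, 20.8. The numbers of genes per complex are small, and the order of the complexes was not tested.

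The tissue-specific isoforms of complex IV provided a contrast inside the family. None of the 7 had a TAF4b peak in either replicate by either rule, against 39 of the 78 members that remain without them and Cox5b-ps, or 50%. With 22.9% of coding genes called, 0 of 7 is a small count to read. Of their 6 broadly expressed partners, 2 met the promoter rule for TAF4b replicate 1 (Cox7a2 and Cox8a) and Cox7b the distance rule, while Cox4i1, Cox6a1 and Cox6b1 had no peak. H3K4me3 was not restricted to the broad forms. By the distance rule 6 of the 7 tissue-specific genes and all 6 partners had a replicate 1 region, where the background was 70.5%. By the promoter rule the counts were 3 of 7 (42.9%) and 4 of 6, against 44.3%.

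The H3K4me3 replicate 1 scores of each pair ran in both directions. Cox4i2, the isoform known from lung, scored 105.8, and its partner Cox4i1 scored 23.8 for a region centred 809 bp inside the gene, with a second region of 17.9 centred 992 bp upstream. Both of these regions were named for and nearest to Emc8, which starts 52 bp from Cox4i1 on the opposite strand. Cox6b2, known from testis, scored 129.7 and Cox6b1 114.8. Cox7b2, also known from testis, scored 111.8 and Cox7b 43.2. The muscle isoforms were lower than their partners, with Cox6a2 at 44.7 and Cox6a1 at 98.4, and Cox7a1 at 73.0 and Cox7a2 at 92.4. Cox4i1, Cox6a1, Cox6a2, Cox7a1 and Cox7b2 had no region by the promoter rule, so their scores are of regions found by the distance rule. Scores within a pair come from 1 library, so these differences have no replicate check.

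The Cox8 genes formed a graded series. Cox8a, the broad form, had both TAF4b (21.3) and H3K4me3 (92.4). Cox8c, known from testis, had H3K4me3 alone at 35.8, in a region centred at -59 bp from the canonical start site. Cox8b, known from heart, skeletal muscle and brown fat, was the only one of the 86 members with no interval of any class in any of the 4 lists; the closest H3K4me3 replicate 1 region was centred 8533 bp upstream. The sequences shown are of unlike windows. For Cox8a it is the TAF4b replicate 1 peak (chr19:7195012-7195154, minus strand), bases -190 to -48 from the canonical start site. For Cox8c (chr12:102865360-102865559, plus strand) and Cox8b (chr7:140480330-140480529, minus strand) it is the bases from -170 to 29 around their canonical start sites. The letters marked are therefore not a like comparison. In 200 bp centred on its start site, Cox8a held ETS (CCGGAAG) and YY1 (AAGATGGC) matches and no CCAAT match. Capitals mark a CCAAT match in Cox8a, an NRF1 match (GCGCATGC) and a GC box in Cox8c, and a TATA match (TATAAA) in Cox8b.
Cox8a: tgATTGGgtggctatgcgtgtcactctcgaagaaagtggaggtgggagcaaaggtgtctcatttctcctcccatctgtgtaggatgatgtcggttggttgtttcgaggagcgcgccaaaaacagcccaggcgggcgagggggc
Cox8c: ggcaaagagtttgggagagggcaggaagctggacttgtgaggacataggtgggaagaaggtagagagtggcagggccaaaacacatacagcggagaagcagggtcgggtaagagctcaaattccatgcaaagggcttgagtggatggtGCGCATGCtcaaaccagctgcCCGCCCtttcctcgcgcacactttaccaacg
Cox8b: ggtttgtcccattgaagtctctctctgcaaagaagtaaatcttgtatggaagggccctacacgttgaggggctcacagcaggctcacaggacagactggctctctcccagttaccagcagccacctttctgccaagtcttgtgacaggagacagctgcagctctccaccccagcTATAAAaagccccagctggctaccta

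**Figure D3:**
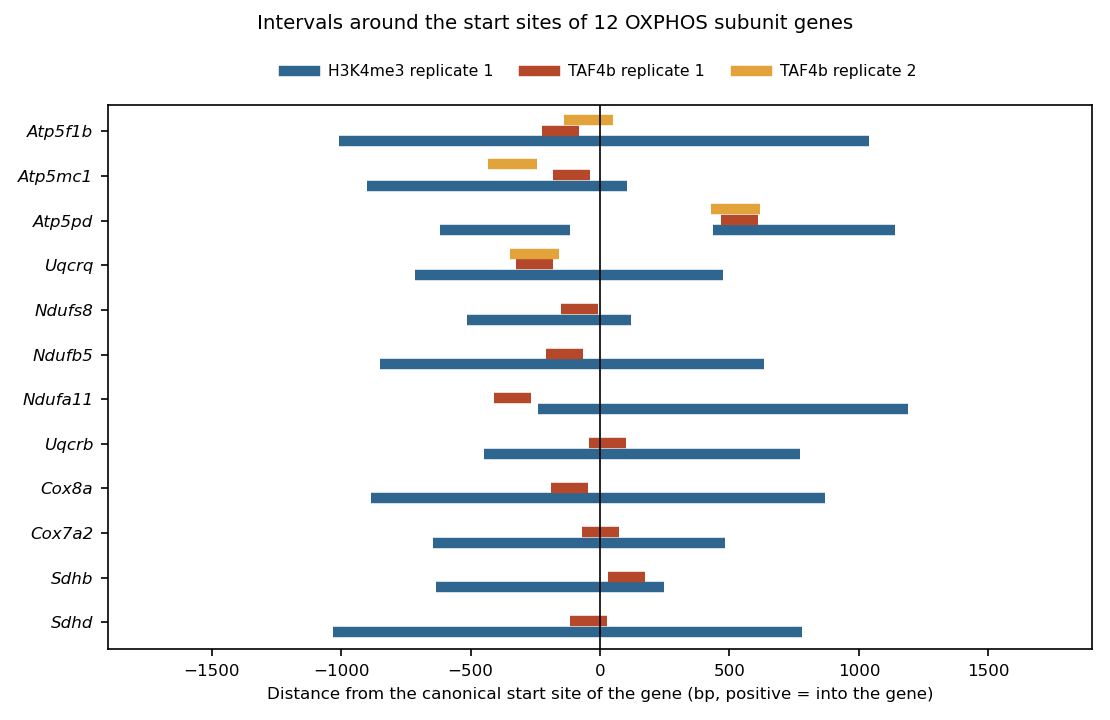
Extents of the intervals within 1000 bp of the start sites of 12 OXPHOS genes, drawn as distance in bp from the canonical start site with the direction of transcription to the right. TAF4b peaks (red, replicate 1; yellow, replicate 2) are narrow and lie mainly left of or across the start site, and the H3K4me3 regions (blue, replicate 1) are broad and span it at 11 genes.

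Positions relative to start sites were compared between the antibodies with the deposited distances, in which a negative value lies upstream. At OXPHOS genes the median position of promoter intervals was -20.0 and -54.0 bp for TAF4b replicates 1 and 2 and 7 and 19 bp for H3K4me3 replicates 1 and 2. By these distances both TAF4b libraries lay upstream of both H3K4me3 libraries. The replicate 2 medians rest on 3 members each, with distances of -302 to 72 bp for TAF4b and -38 to 170 bp for H3K4me3. In replicate 1 the intervals were at 39 and 56 members. The difference of the means was -50 bp (TAF4b -37 ± 24, H3K4me3 13.0 ± 8.49, SD, n = 2 each), with p = 0.33 by an exact two-sided permutation test over libraries, the smallest p that 2 against 2 allows. In the higher-scoring 50% of each list the difference was 0.75 bp, so its direction depends on which intervals are kept. The replicate 2 values there rest on 2 TAF4b members and 1 H3K4me3 member. Measured from the canonical start site of each member, the medians were 3 and -252 bp for TAF4b and 15.5 and -53 bp for H3K4me3, and TAF4b replicate 1 then lay downstream of H3K4me3 replicate 2. That difference was -106 bp (exact two-sided permutation test, p = 0.667). Of the replicate 1 TAF4b peaks at members, 27 of 39 (69.2%) had their centre upstream, against 81.5% over all coding genes with a promoter peak, whose median position was -50 bp. From the canonical start sites the count was 17 of 39 (43.6%), against 60.6%. For 7 of the 39 the deposited distance refers to the start of another gene, as at Uqcrq.

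The share of members with a promoter interval was 24.4% ± 29.6 for TAF4b and 34.3% ± 43.6 for H3K4me3 (SD, n = 2 each). The difference of -9.88 percentage points was far smaller than the spread between replicates (exact two-sided permutation test, p = 1.00).

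OXPHOS genes often start close to a neighbour on the opposite strand, an arrangement in which an interval may belong to either gene. Such a start site of another coding gene lay within 1000 bp at 23 of 86 members, 26.7%, against 8.82% of all coding genes. TAF4b replicate 1 peaks were within 1000 bp of 16 of these 23 (69.6%), near the background of 65.2% for genes with a neighbour. At the 63 members with no such neighbour, TAF4b peaks were within 1000 bp of 31 (49.2%), against a background of 25.4%. At 4 of these 31 the peak was named for or nearest to another coding gene all the same (Gdf9 at Uqcrq, Magt1 at Cox7b, Rbm10 at Ndufb11 and Wdr4 at Ndufv3), so they are not free of a second gene. By the promoter rule the shares were 11 of 23 (47.8%) and 28 of 63 (44.4%), against 33.4% and 21.9%. The share at members with a neighbour was thus near its background by the distance rule alone, and the contrast between members with and without one was not tested. The neighbours included Gabpa, a regulator of OXPHOS genes, 980 bp from Atp5pf, a peripheral stalk gene. At 8 members the peak met only the distance rule (Atp5f1c, Atp5pd, Cox7b, Ndufb1, Ndufb11, Ndufb9, Ndufs1 and Ndufv3), and at all 8 the deposited annotation named another gene.

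The 3 members on the X chromosome were Ndufa1, Ndufb11 and Cox7b. None had a TAF4b promoter peak, and with 22.9% of coding genes called in replicate 1, 0 of 3 is too small a count to read. By distance, Ndufb11 had a replicate 1 peak of 6.95 named for Rbm10. Cox7b had one of 17.9 named for Magt1 and centred at -3730 bp from the canonical Cox7b start site. Their H3K4me3 replicate 1 scores were 68.6 for Ndufa1, 74.5 for Ndufb11 and 43.2 for Cox7b. Of the genes with H3K4me3 in the short replicate 2 list, Ndufa2, an accessory complex I subunit, scored 149.1 in replicate 1 and 111.2 in replicate 2, Ndufb6 scored 92.4 and 101.1, and Atp5mk, a small ATP synthase subunit, 122.2 and 106.1. Ndufa2 (TAF4b replicate 1 score 27.8, start site 195 bp from Ik) and Atp5mk (18.9, start site 48 bp from Pdcd11) also had TAF4b peaks, and Ndufb6 had none.

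The sequence around the TAF4b peaks or, at genes with no promoter peak, the canonical start sites was searched for 7 motifs on both strands in windows of 200 bp. Matches to the YY1 motif (AAGATGGC) and the NRF1 motif, both of transcription factors known to act on nuclear OXPHOS genes, were more frequent at members than at all coding genes. YY1 was at 10 of 86, 11.6%, against 2.36%, and NRF1 at 9, 10.5%, against 3.11%. In windows of 100 bp the counts were 2 for YY1 (2.33%, against 1.07% of all coding genes) and 5 for NRF1 (5.81%, against 2%). The ETS motif (CCGGAAG), bound by GABPA among others, was at 16, 18.6%, against 9.72%. The GC box (43.0% against 42.2%) and the CCAAT box (29.1% against 30.9%) were about as frequent as in other genes. The TATA motif was at 4 members (4.65% against 7.95%), and the GFY motif (ACTACAATT) at Atp5f1d alone (1.16% against 0.469%). With windows centred on the start site for all genes, the only member with GFY was Uqcr10. The GC content of windows at the start site was also alike, with a median of 60% for members and 58.5% for all coding genes. A match describes the letters and does not show that a factor binds.

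Motif counts at the 39 members with a TAF4b replicate 1 promoter peak were set beside those at all coding genes with one, with no test of the difference. GC boxes were in 46.2% of the 39 windows, against 66.9% at all 4936 coding genes with a peak, and CCAAT boxes in 20.5%, against 42.4%. YY1 matches were in 10.3%, against 3.63%, and NRF1 matches in 10.3%, against 6.32%. ETS matches were less frequent at the 39 (5, or 12.8%) than at the 4936 (890). They were in 23.4% of members without a peak. In windows of 100 bp the order for YY1 was the opposite, 0 of 39 against 1.24%, and so was that for ETS, 12.8% against 10.3%. GC boxes (41.0% against 48.0%), CCAAT boxes (15.4% against 32.6%) and NRF1 (5.13% against 3.4%) kept theirs. With windows centred on the start site for all genes, ETS was in 17.9%, against 16.9%. CCAAT boxes were also less frequent at members with a TAF4b promoter peak than at members without one (36.2%), whereas over all coding genes the share was higher with a peak (42.4%) than without (27.5%). The peaks whose windows held a CCAAT box had the higher median score. The 8 members with a CCAAT match in the window of 200 bp around the peak centre (Atp5f1b, Atp5mc1, Atp5mk, Cox8a, Ndufa11, Ndufa2, Ndufs8 and Sdhb) had a median TAF4b score of 29.3, and the 31 without it 14.4. In windows of 100 bp a CCAAT match was at 6 of the 39, without Cox8a and Ndufa11. Over all coding genes with a peak the medians were 21.8 and 14.9, in the same direction. This comparison was chosen after the scores had been seen, and it has no test. None of the YY1, NRF1 and ETS motifs went with a higher median score at members (13.4, 12.9 and 13.4 with the motif, against 15.4, 15.4 and 15.2 without it).

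**Figure D4:**
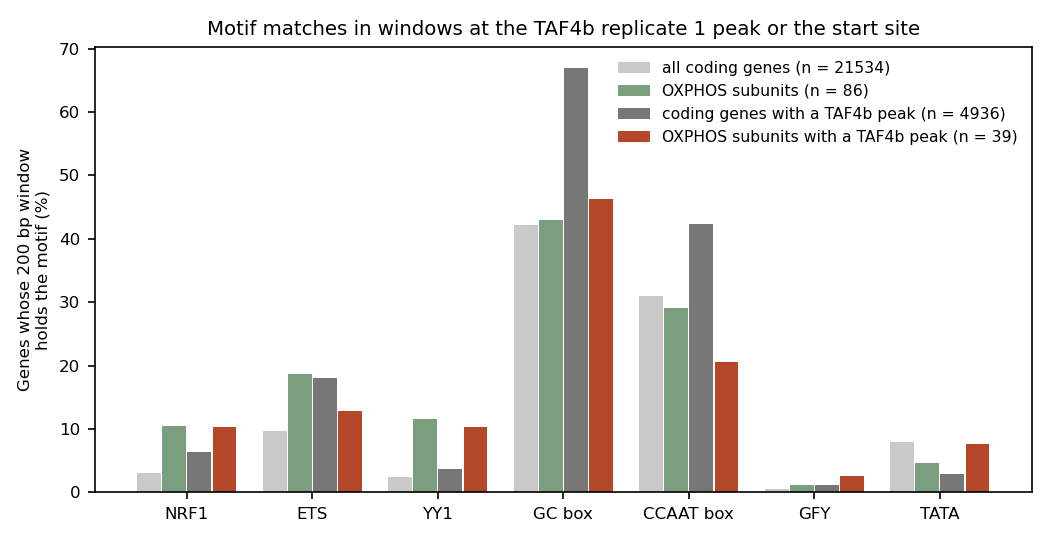
Share of genes (in %, bars from 0) whose 200 bp window holds each motif, for all coding genes, the 86 OXPHOS genes, all 4936 coding genes with a TAF4b replicate 1 promoter peak and the 39 OXPHOS genes among these. The last group has fewer GC boxes (46.2%) and CCAAT boxes (20.5%) than TAF4b-bound genes in general (66.9% and 42.4%).

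The peaks of 3 complex I and II genes show these elements. The Ndufs8 peak (chr19:3962788-3962930, minus strand, bases -151 to -9 from the start site) holds 2 CCAAT boxes. The Ndufa3 peak, shown from its first base to 29 bases into the gene (chr7:3620260-3620401, plus strand), holds a GC box and, just inside the transcript, a YY1 match. The downstream part of the Sdhd peak, from base -71 to 26 around the start site (chr9:50515098-50515195, minus strand), starts with an ETS match and holds a GC box. Ndufs8 scored 30.8, Ndufa3 11.9 and Sdhd 12.9 in TAF4b replicate 1. Capitals mark the motif letters.
Ndufs8: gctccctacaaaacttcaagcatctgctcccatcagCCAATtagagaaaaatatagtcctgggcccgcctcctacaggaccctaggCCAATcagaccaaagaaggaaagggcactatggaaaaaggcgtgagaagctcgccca
Ndufa3: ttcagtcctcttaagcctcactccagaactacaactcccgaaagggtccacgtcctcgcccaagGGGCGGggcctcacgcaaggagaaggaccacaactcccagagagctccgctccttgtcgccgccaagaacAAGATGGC
Sdhd: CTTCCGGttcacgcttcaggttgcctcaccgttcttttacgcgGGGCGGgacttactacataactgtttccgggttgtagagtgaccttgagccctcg

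Other genes that serve the pathway were called at shares at or above that of the subunits, apart from glycolysis and the mitochondrial ribosome. By the promoter rule TAF4b replicate 1 peaks were at 27 of 52 OXPHOS assembly factors (51.9%), 9 of 14 genes of electron carriers and coenzyme Q synthesis (64.3%), 6 of 13 of the tricarboxylic acid cycle (46.2%) and 11 of 15 regulators of mitochondrial biogenesis (73.3%), beside 39 of 86 subunits (45.3%) and the 22.9% of coding genes. Glycolysis had 5 of 15 (33.3%) and mitochondrial ribosomal proteins 22 of 78 (28.2%), while cytosolic ribosomal proteins had 49 of 73 (67.1%). By distance the count for mitochondrial ribosomal proteins was 37 of 78 (47.4%), beside 54.7% of the subunits and 28.9% of coding genes. The lists were not tested against each other.

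By the promoter rule, peaks in both TAF4b replicates were at few genes of each list. They were Foxred1 and Pet100, assembly factors of complexes I and IV, Esrra, a nuclear receptor that acts on OXPHOS genes, Tfb1m, a mitochondrial ribosomal RNA methyltransferase, Cycs, which encodes the cytochrome c of somatic cells, Coq8a of coenzyme Q synthesis and the glycolytic gene Pkm. Of the mitochondrial ribosomal genes it was Mrps14, and by the distance rule also Mrpl18, Mrpl48 and Mrps18b, with Mdh2 of the tricarboxylic acid cycle. Of the cytosolic ribosomal genes there were 11, or 15.1% of that list, against 3.49% of the OXPHOS subunits and 2.73% of coding genes. The 2 electron carrier genes are 14.3% of 14 and the 2 regulators of mitochondrial biogenesis 13.3% of 15. Cyct, which encodes the cytochrome c of testis, had a promoter peak in TAF4b replicate 1 alone. In this it differed from the 7 tissue-specific isoforms of complex IV, which had none.

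**Figure D5:**
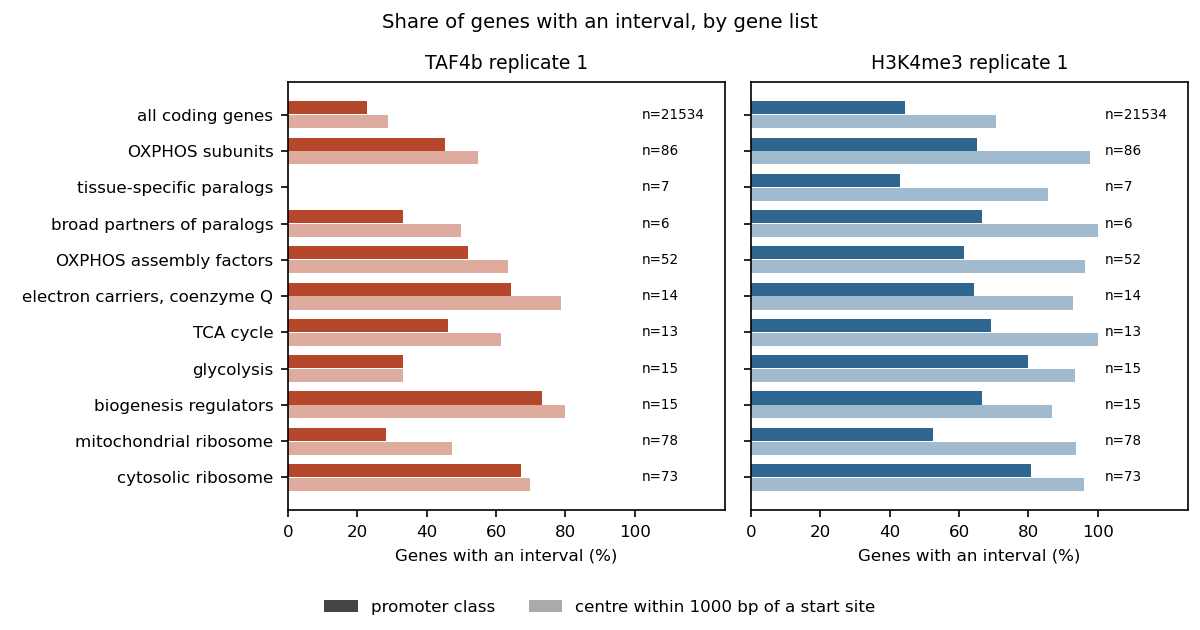
Share of genes (in %, bars from 0) with a replicate 1 interval, by gene list, for TAF4b (left) and H3K4me3 (right); dark bars follow the promoter rule and pale bars the distance rule, and n is the number of genes. The OXPHOS subunits stand at 45.3% and 54.7% for TAF4b, above all coding genes (22.9% and 28.9%), and the tissue-specific isoforms at 0.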

How the data were processed

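The 4 lists analysed hold the intervals of 1 library each: peaks for TAF4b and regions for H3K4me3, replicates 1 and 2. Per the submitters' processing notes, the tools were bcl2fastq 2.20, Trim Galore 0.5.0, FastQC 0.11.5, Bowtie2 2.3.0, SAMtools 1.9 and HOMER 4.10 on GRCm39; the settings of peak calling are not given in the sources used here. The H3K4me3 file headers name GRCm39 and Ensembl 103, and the TAF4b headers name no build. The deposited peak score is the authors' value with an unstated scale, and the deposited distance to the start site was used as given. Interval lengths are end minus start, 142 bp and 188 bp for the TAF4b lists.

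Genes were named through the deposited transcript identifiers in GENCODE M39, where 98.8% and 99.1% of the TAF4b and 98.6% and 98.7% of the H3K4me3 identifiers were found. The deposited distances equalled those computed on GRCm39 for 57.4% and 50.7% (TAF4b) and 76.9% and 65.8% (H3K4me3) of intervals. Readthrough transcripts were left out. A gene with several intervals in a list was given its highest score. A start site counted as a neighbour when it was the canonical start of a coding gene on the opposite strand.

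Counts of members have no test, because genes are not replicates; the share of all coding genes stands beside them. Antibodies were compared over libraries by exact two-sided permutation tests. Members, gene lists and motifs were chosen with earlier results of these data known. Named genes were those with TAF4b peaks in both replicates or in replicate 2, the 2 highest TAF4b scores per complex (with a tie), the tissue-specific isoforms and their partners, members with H3K4me3 in replicate 2, members on the X chromosome and those with no interval; others were named after their values were seen, to list counts in full. Motif windows of 200 bp were read from GRCm39, and sequences were trimmed to at most 30 bases of exons. The steps were tested on simulated intervals. Tools were Python 3.11.15, pandas 2.3.3, numpy 2.4.6, scipy 1.17.1, pysam 0.24.0 and matplotlib 3.10.9. Alternatives were the distance rule, the nearest transcript, the higher-scoring 50% of each list, equal list sizes, a 50% overlap, other motif windows, leaving out each replicate and a replicate block. One member is counted and is not reported here by name.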

Additional observations from a re-analysis of the deposited data

Results flagged for a closer look

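In TAF4b replicate 2, 11 peaks lay on the mitochondrial genome, which encodes the OXPHOS subunits that are not nuclear. Their scores, 5793 to 7441, were the 11 highest of the 848 in that list, and the other 3 lists held 0 such intervals. They came to attention because they lie outside the nuclear promoters that were compared. The IgG libraries were not analysed here, and the source of these peaks was not tested.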

How the results depend on the processing

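Of 60 alternative values, 14 moved and 1 reversed. In the other 45, counts stayed within 1.5 times the reported count, shares within its exact 95% binomial interval and score ratios within the SD of both replicates. Differences between the antibodies were held to their sign alone: the share difference of -9.88 percentage points was -20.9 by the distance rule and -16.3 in the higher-scoring 50% of each list, and the position difference of -50 bp was -106 bp from the canonical start sites. In the higher-scoring 50% of each list, the TAF4b replicate 1 count was 20 in place of 39 members (23.3%, against 14.7% of coding genes), the H3K4me3 replicate 2 count 1 in place of 3 (1.16%, against 2.57%), and the difference in median position went from -50 to 0.75 bp. With equal numbers of intervals per antibody, TAF4b replicate 1 gave 6 members (6.98%, against 3.39%) and H3K4me3 replicate 1 gave 4 in place of 56 (4.65%, against 3.45%). By the nearest transcript, H3K4me3 replicate 2 gave 1 member (1.16%, against 6.73%). Overlap with the other H3K4me3 list was 5.13% for TAF4b replicate 1 (against 8.23% over all coding genes) and 100%, 3 of 3, for replicate 2 (against 92.4%). In 100 bp windows, NRF1 was at 5, YY1 at 2 and GFY at 0 members. Among genes with an H3K4me3 replicate 1 promoter region, the backgrounds were 38.0%, 5.51% and 7.54% for TAF4b replicates 1 and 2 and H3K4me3 replicate 2. Leaving out a replicate gave -19.8 to 0 percentage points for the difference in share and -73.0 to -27.0 bp for that in position. With the replicate number as a block, the differences were -9.88 points (exact sign-flip permutation, p = 1.00) and -50 bp (p = 0.5, the smallest 2 pairs allow); the labels do not say that equal numbers share cells, so the numbers may not pair the libraries. Except where a value follows from the shorter list or window itself, the cause was not tested. The unknown depth of the replicate 2 lists limits what their empty promoters show.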
